A study of Zeugodacus cucurbitae with 6 samples.

Results

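The genes described here are 8 genes of DNA repair and the response to DNA damage in the melon fly Zeugodacus cucurbitae, chosen by their identifiers in the deposited table: Fanci_0, Msh6_1, Poli_1, Xrcc1_1, Smug1_1, Xpac_1, Topbp1-a and Sesn_2. They are 8 of the 12834 genes of the table. Their roles are read from their symbols, which also carry counters such as _1, and no sequence was available to check them. RNA was sequenced from whole 3rd instar larvae. The non-irradiated group (0 Gy) and the irradiated group, whose eggs had received 50 Gy of gamma rays from 60Cobalt at 1.0 Gy per minute at an age of about 25 h, had 3 replicates each. A replicate was a pool of 20 larvae reared on artificial diet, with 1.5 µg of RNA taken for a poly-A selected library. The labels give neither the sex of the larvae nor the time from irradiation to collection, so the values describe larvae that grew after the exposure of the egg.

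Ionizing radiation breaks DNA strands and damages bases, and cells answer along several routes. Base excision repair removes a damaged base and reseals the strand, nucleotide excision repair cuts out a short stretch around a bulky lesion, and mismatch repair corrects bases that replication paired wrongly. Interstrand crosslinks are released by the Fanconi anaemia pathway, translesion polymerases copy past damage that is still in place, and checkpoint proteins stop the cell cycle meanwhile. In whole larvae these transcripts come from all tissues, from dividing imaginal discs to polyploid larval cells.

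The libraries held 13192748 to 18311658 counts on genes, so that 1 count corresponded to 0.0546 to 0.0758 CPM (counts scaled to a common library size). Of the 12834 genes, 9768 had enough counts to be tested, and all 8 genes were among them. Irradiated replicates 1 and 2 were more alike than any other pair of libraries, with a Spearman correlation across genes of 0.996 against 0.930 to 0.978 for the other 14 pairs. For Fanci_0 and Msh6_1, values from adding the pair up as 1 library are given as well. Nothing states that the pools came from separate parent cages, so the p-values measure the spread between these pools. No gene of the table carries a symbol of the hexamerin, cuticle and glue protein list or of the germline list that were searched, so the labelled stage was not checked by markers. In pooled larvae, fewer cells of a type and less RNA per cell cannot be told apart.

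The groups were compared to ask which repair transcripts differed in the larvae that grew from irradiated eggs. Fanci_0 of the crosslink route fell to 0.478 of its non-irradiated level and was the only 1 of the 8 genes with an adjusted p under 0.05. Msh6_1 of mismatch repair had the next largest difference, at 0.534 of the non-irradiated level, without passing that threshold. Poli_1 of translesion synthesis lay on the other side, at 1.22 of the non-irradiated level, also without passing it. The genes of base excision, nucleotide excision, checkpoint and stress response did not pass either. All tests are edgeR's quasi-likelihood test over the 9768 genes with Benjamini-Hochberg adjustment, and levels are normalized CPM, scaled with the TMM method, as mean ± SD (n = 3 pools each).

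The share of all tested genes with an adjusted p under 0.05 was 3.74% (1.6% lower in irradiated larvae, 2.14% higher), against 1 of the 8 genes, which was lower. By the threshold of the study's methods (unadjusted p under 0.05, an absolute log2 fold change of 0.58 or more, and over 1 FPKM in any library), 2 of the 8 genes were lower and 0 were higher, where 5.58% and 6% of all tested genes were called. An unadjusted p under 0.05 alone was met by the same 2 of the 8 genes, both lower, and by 21% of all tested genes (10.3% lower, 10.7% higher). FPKM is the fragment count scaled to gene length and to library size. The groups did not overlap in 3 of the 8 genes, each lower in the irradiated larvae, whereas 28.4% of all tested genes did not overlap and 13.3% did so with lower irradiated libraries. Across the 8 genes the middle log2 fold change (median) was -0.20, beside -0.01 over all tested genes.

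**Figure D1:**
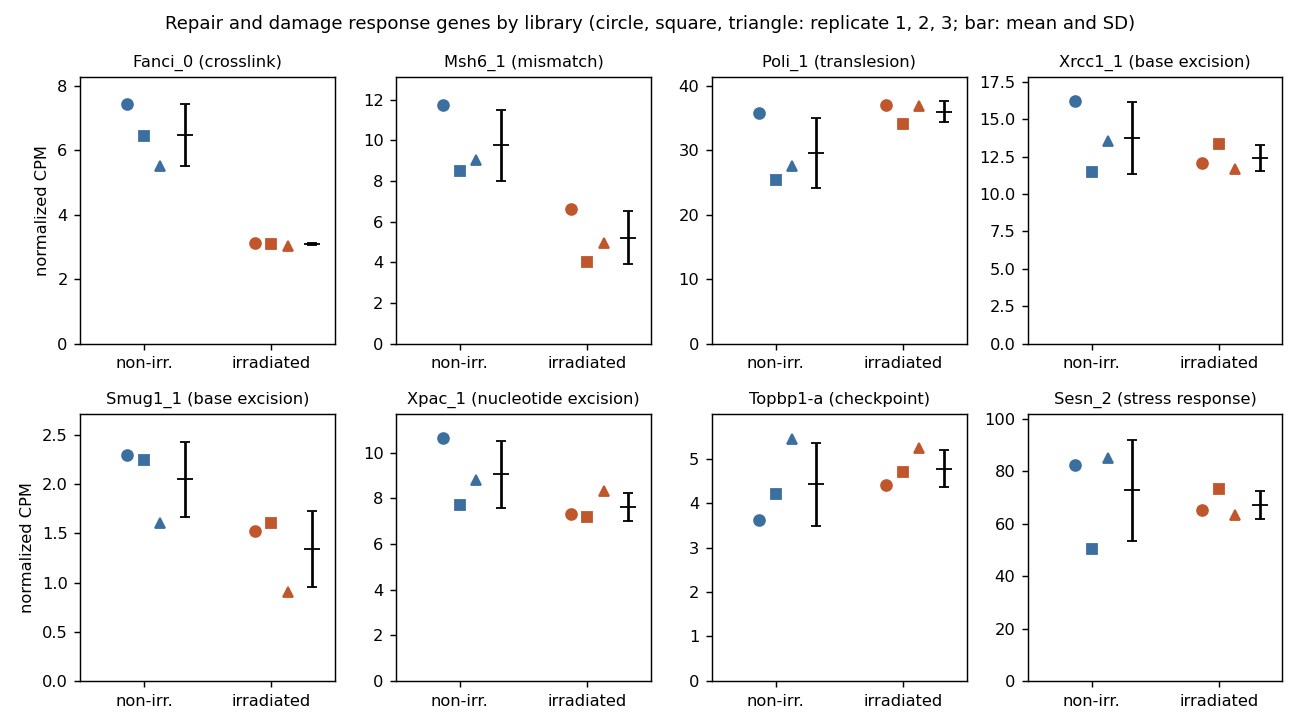
Each panel shows 1 gene, with normalized CPM on a linear axis from 0, the 3 non-irradiated libraries in blue and the 3 irradiated ones in orange (circle, square and triangle for replicates 1, 2 and 3), and the mean with its SD as a black bar. Fanci_0 lies at 5.51 to 7.44 in non-irradiated and 3.04 to 3.11 in irradiated larvae, while the groups of Xrcc1_1, Topbp1-a and Sesn_2 overlap.

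Fanci_0 bears the symbol of FANCI, a protein of the Fanconi anaemia pathway that in vertebrates pairs with FANCD2 on DNA at stalled replication forks. Replicates 1, 2 and 3 of the non-irradiated larvae gave 107, 86 and 89 counts, and those of the irradiated larvae 53, 56 and 54. The normalized levels were 7.44, 6.44 and 5.51 CPM against 3.11, 3.10 and 3.04 CPM. Every irradiated pool lay below every non-irradiated pool, and the irradiated pools were almost level. The group means were 6.47 ± 0.961 and 3.08 ± 0.0385 CPM, a log2 fold change of -1.07 (standard error 0.18, 95% interval -1.49 to -0.64, adjusted p = 0.0283 from edgeR). This is a 2.09-fold lower level, with an interval from 1.56-fold to 2.81-fold. The spread of the irradiated pools, 1.25% of their mean, was smaller than the counting error of about 13.7% for 53 counts. The SD of that group therefore understates the error. The fitted standard error combines the spread of this gene with that of all genes, so it is not free of this small spread. In DESeq2 the standard error was 0.26. The two-sided p of an exact permutation test on the levels was 0.1, the smallest value that 3 libraries against 3 allow.

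The call of Fanci_0 depended on the libraries and on the model. With irradiated replicates 1 and 2 summed, its log2 fold change was still -1.07, with an adjusted p of 0.112 from edgeR. When the libraries were omitted singly, the fitted difference lay between -1.17 and -0.95 on the log2 scale, but the adjusted p was under 0.05 only without non-irradiated replicate 3 (0.0414) and reached 0.118 without irradiated replicate 2. It was 0.0569 without non-irradiated replicate 1, 0.0598 without non-irradiated replicate 2, 0.114 without irradiated replicate 1 and 0.0845 without irradiated replicate 3. With all 6 libraries, the adjusted p was 0.00134 from DESeq2, 0.0425 from limma on log2(FPKM + 0.1) and 0.0805 from limma on log2(FPKM + 1). It was 0.093 in edgeR with the replicate number as a block, although same-numbered pools did not deviate together.

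Another gene of crosslink and joint processing in the table is Gen, the symbol of a nuclease that cuts branched DNA in Drosophila. It had 19, 8 and 13 counts in non-irradiated and 6, 14 and 12 counts in irradiated larvae. The groups overlapped, and with so few counts the 95% interval of its log2 fold change ran from -1.70 to 0.52 (adjusted p = 0.531 from edgeR), so that a decrease of the size seen for Fanci_0 was not detectable at this depth.

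Msh6_1 carries the name of a mismatch repair subunit that recognizes mispaired bases and small loops. Its 3 non-irradiated replicates gave 169, 113 and 146 counts, and its 3 irradiated replicates 113, 73 and 88. After normalization the levels were 11.7, 8.47 and 9.05 CPM against 6.63, 4.04 and 4.95 CPM. The groups did not overlap, with irradiated replicate 1 nearest to the non-irradiated pools. The means were 9.75 ± 1.75 and 5.21 ± 1.32 CPM, a log2 fold change of -0.91 (standard error 0.23, 95% interval -1.45 to -0.36, unadjusted p = 0.00557, adjusted p = 0.0818 from edgeR). It met the threshold of the study's methods and passed an adjusted p of 0.05 with DESeq2 (0.0224), though not in any other alternative. With irradiated replicates 1 and 2 summed, the log2 fold change was -0.92 and the adjusted p 0.138 from edgeR.

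The nearly alike irradiated replicates 1 and 2 differed for Msh6_1. The ratio of their library-scaled counts was 1.64 (95% exact binomial interval 1.21 to 2.24, which covers counting error only). For Fanci_0 the same ratio was 1.00 (interval 0.677 to 1.49). Of the other genes, Sesn_2 alone had an interval that left out 1, with a ratio of 0.889 (0.820 to 0.963). No other mismatch repair gene of the list is named in the table, so the route rests on 1 transcript.

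Poli_1 has the symbol of DNA polymerase iota, a translesion enzyme that inserts bases opposite damaged ones in mammals and in Drosophila. Non-irradiated larvae gave 514, 339 and 445 counts, irradiated larvae 630, 617 and 654. These counts correspond to 35.7, 25.4 and 27.6 CPM against 37.0, 34.1 and 36.8 CPM. Non-irradiated replicate 1 reached the level of the irradiated pools, and the other 2 non-irradiated pools lay below them all. The means were 29.6 ± 5.44 and 36.0 ± 1.61 CPM, and the log2 fold change was 0.28 (standard error 0.15, 95% interval -0.07 to 0.63, adjusted p = 0.332 from edgeR). Without non-irradiated replicate 1 it was 0.44 with an adjusted p of 0.0924, and without non-irradiated replicate 2 it was 0.18.

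Base excision repair is represented by a late and an early factor. Xrcc1_1 carries the symbol of the scaffold protein that, in mammals, holds the ligase and other enzymes at a broken strand. Non-irradiated larvae gave 234, 153 and 219 counts of it, irradiated larvae 206, 242 and 208. The levels of 16.3, 11.5 and 13.6 CPM enclosed the irradiated levels of 12.1, 13.4 and 11.7 CPM. The means were 13.8 ± 2.41 and 12.4 ± 0.878 CPM, and the log2 fold change of -0.15 had a 95% interval from -0.53 to 0.22 (standard error 0.16, adjusted p = 0.633 from edgeR). The interval leaves out the fold change of Fanci_0 but not smaller differences in either direction.

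Smug1_1 has the name of a glycosylase that removes uracil and oxidized pyrimidines from DNA, the first step of the route. It was the least counted of the 8 genes, at 33, 30 and 26 counts without irradiation and 26, 29 and 16 after it. The levels were 2.29, 2.25 and 1.61 CPM against 1.53, 1.60 and 0.900 CPM. The groups did not overlap, but non-irradiated replicate 3 and irradiated replicate 2 were practically equal. The means were 2.05 ± 0.382 and 1.34 ± 0.386 CPM, and the log2 fold change was -0.60 (standard error 0.33, 95% interval -1.38 to 0.17, adjusted p = 0.35 from edgeR). The counting error alone was 25.0% in the library with 16 counts, and neither a fall as large as that of Fanci_0 nor an unchanged level lay outside the interval. Without irradiated replicate 3 the log2 fold change was -0.38.

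The base excision list held 1 further gene of the table, Parg_0, named for the enzyme that removes poly(ADP-ribose) chains laid down at strand breaks. Its levels were 15.8, 11.2 and 15.4 CPM in non-irradiated and 17.9, 13.8 and 17.1 CPM in irradiated larvae. The groups overlapped, and the log2 fold change was 0.20 (95% interval -0.22 to 0.62, adjusted p = 0.571 from edgeR).

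Nucleotide excision repair is represented by Xpac_1, the fly symbol for the homologue of XPA, which in mammals verifies the lesion and orders the incision complex around it. It had 153, 103 and 142 counts in non-irradiated and 125, 130 and 148 counts in irradiated libraries. The levels were 10.6, 7.72 and 8.80 CPM against 7.34, 7.19 and 8.33 CPM. Irradiated replicate 3 lay above non-irradiated replicate 2, so the groups overlapped. The means were 9.05 ± 1.47 and 7.62 ± 0.619 CPM, and the log2 fold change was -0.25 (standard error 0.16, 95% interval -0.64 to 0.14, adjusted p = 0.443 from edgeR). In the gene table of a newer assembly, Xpac_1 overlaps LOC105221389 and LOC105221396, and reads shared with them could not be reassigned here. The log2 fold changes of these neighbours were -0.04 and 0.17, with adjusted p of 0.894 and 0.607 from edgeR.

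Tfb1_3, named for a core subunit of TFIIH, the helicase complex that opens DNA in transcription and in nucleotide excision repair, was the other gene of this list. It stood at 34.7, 25.9 and 25.1 CPM in non-irradiated and 33.6, 35.1 and 30.1 CPM in irradiated larvae. The groups overlapped through non-irradiated replicate 1, as they did for Poli_1. Its log2 fold change was 0.21 (95% interval -0.16 to 0.57, adjusted p = 0.497 from edgeR).

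Topbp1-a is named for a scaffold of the replication checkpoint that, in vertebrates, activates the kinase ATR at damaged forks. The counts were 52, 56 and 88 in non-irradiated and 75, 85 and 93 in irradiated libraries. The levels were 3.61, 4.20 and 5.45 CPM against 4.40, 4.70 and 5.23 CPM, so non-irradiated replicate 3 was above every irradiated pool and the other 2 were below. The means were 4.42 ± 0.940 and 4.78 ± 0.421 CPM, and the log2 fold change was 0.11 (standard error 0.21, 95% interval -0.38 to 0.60, adjusted p = 0.814 from edgeR). The value turned to -0.018 without non-irradiated replicate 1, and no direction can be given.

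Sesn_2 carries the symbol of sestrin, a stress protein that in mammals is a target of p53 and that restrains the growth kinase TOR in mammals and in Drosophila. It was the most abundant of the 8 genes, with 1187, 674 and 1376 counts in non-irradiated and 1109, 1325 and 1124 counts in irradiated libraries. The levels were 82.5, 50.5 and 85.3 CPM against 65.1, 73.3 and 63.3 CPM. All irradiated pools lay between non-irradiated replicate 2, which was low, and the other 2 non-irradiated pools. The means were 72.8 ± 19.3 and 67.2 ± 5.33 CPM, and the log2 fold change was -0.12 (standard error 0.21, 95% interval -0.61 to 0.38, adjusted p = 0.805 from edgeR). Without non-irradiated replicate 2 the log2 fold change was -0.32 (adjusted p = 0.203), and without non-irradiated replicate 3 it was 0.016. The gene overlaps LOC105221336 in the newer assembly, which differed by 0.07 on the log2 scale (edgeR, adjusted p = 0.76).

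The genes around sestrin were taken from a list of TOR and stress partners, of which 4 symbols are in the table. Of these, 0 passed an adjusted p of 0.05 in edgeR, with 1 under an unadjusted p of 0.05 and 0 called by DESeq2. Among all tested genes, 3.74% passed the adjusted and 21% the unadjusted threshold in edgeR, and the groups did not overlap in 28.4%. Tor, the kinase itself, stood at 11.7, 8.69 and 10.8 CPM in non-irradiated and 15.6, 15.3 and 11.9 CPM in irradiated larvae, without overlap. The higher irradiated values were those of the nearly alike replicates 1 and 2, and irradiated replicate 3 was practically equal to non-irradiated replicate 1. The log2 fold change of Tor was 0.45 (95% interval 0.04 to 0.85, unadjusted p = 0.0351, adjusted p = 0.201 from edgeR). Prkag2_1, a regulatory subunit of AMP-activated kinase, also did not overlap, at 101 ± 4.66 and 83.7 ± 7.25 CPM (log2 fold change -0.27, adjusted p = 0.264). Akt1_0 had a log2 fold change of 0.13 and Crc_0, a symbol used for more than 1 gene, of 0.45, both with overlapping groups.

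**Figure D2:**
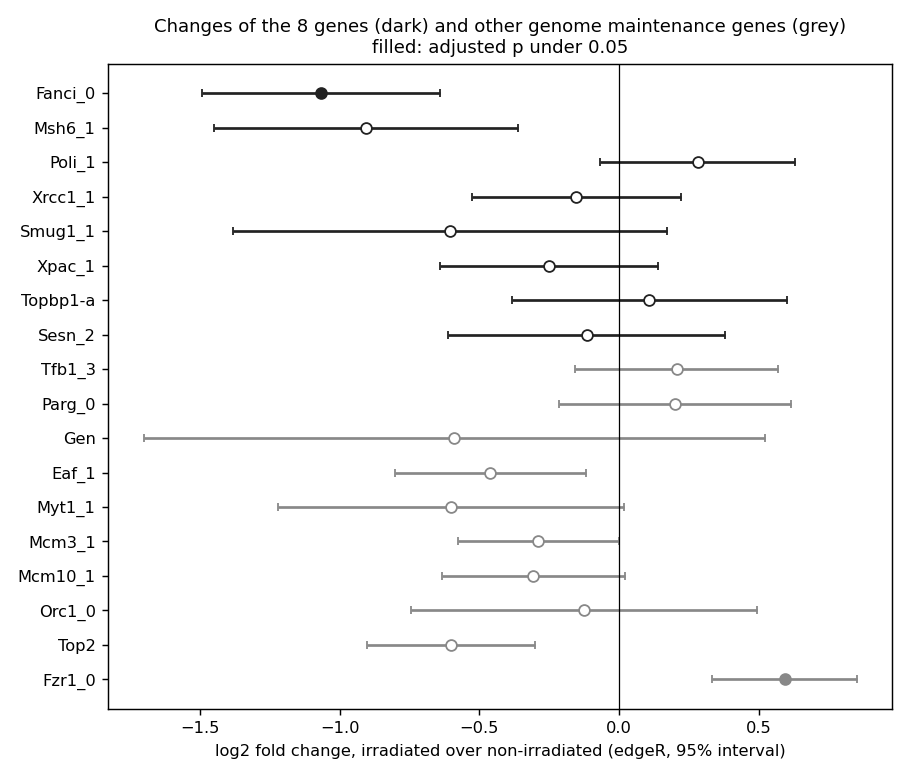
Points are log2 fold changes of irradiated over non-irradiated larvae with 95% intervals from edgeR, for the 8 genes (dark) and for other repair, replication and genome maintenance genes (grey), and filled points have an adjusted p under 0.05. Fanci_0 at -1.07 and Fzr1_0 at 0.59 are the filled points, and the intervals of 6 of the 8 genes include 0.

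Over all repair routes, the symbols searched matched 13 genes of the table, the 8 genes and 5 more, and all 13 were tested. Of these, 1 was lower and 0 were higher at an adjusted p under 0.05, where 1.6% and 2.14% of all tested genes were called. The median log2 fold change of the 13 was -0.25, beside -0.01 over all tested genes. With 1 library left out this median ran from -0.35 to -0.12, and it was -0.12 without non-irradiated replicate 1. Only 1032 identifiers of the table carry a symbol at all, so most repair genes of the fly are listed under a number and were not analysed here. For double strand break repair no symbol was found. The 5 further genes were Gen, Parg_0, Tfb1_3, Eaf_1 and Myt1_1, and 0 of them passed the adjusted threshold in edgeR or in DESeq2. In edgeR 1 of them was below an unadjusted p of 0.05, as were 21% of all tested genes. Eaf_1 (12.6 ± 1.52 and 9.15 ± 0.776 CPM, log2 fold change -0.46, adjusted p = 0.133) and Myt1_1 (3.34 ± 0.270 and 2.20 ± 0.569 CPM, log2 fold change -0.60, adjusted p = 0.251) did not overlap between the groups, but these symbols are shared with genes outside DNA repair and their roles are not given. The p53 and apoptosis list matched the symbol W alone, which in Drosophila has been used for different genes (log2 fold change -0.16, adjusted p = 0.773 from edgeR).

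Several repair genes are used when DNA is copied, and genes of DNA replication were read beside them. Mcm3_1, a subunit of the replicative helicase, stood at 17.0, 16.7 and 17.3 CPM in non-irradiated and 13.1, 12.9 and 15.7 CPM in irradiated larvae. The groups did not overlap, and the log2 fold change was -0.29 (95% interval -0.58 to 0.00, adjusted p = 0.239 from edgeR). Mcm10_1, a replication initiation factor, had a log2 fold change of -0.31 (adjusted p = 0.266) and Orc1_0, of the origin recognition complex, of -0.13 (adjusted p = 0.83), both with overlapping groups. All 3 were below 0 and 0 passed an adjusted p of 0.05 in edgeR or DESeq2, and 0 had an unadjusted p under 0.05. For all tested genes the edgeR shares were 3.74% adjusted and 21% unadjusted, and the groups did not overlap in 28.4%. The median log2 fold change of all tested genes was -0.01, so values below 0 were common. The part of replication in the values of Fanci_0 and Msh6_1 was not tested.

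A list of 18 further genes of genome maintenance and cell division was drawn from the names in the table. At an adjusted p under 0.05 in edgeR, 1 of the 18 was higher and 0 were lower, where 2.14% of all tested genes were higher and 1.6% lower. DESeq2 called 2 of the 18 and 1034 genes of the whole table, so the shares from edgeR do not apply to its count. The median log2 fold change of the list was 0.03. The higher gene was Fzr1_0, named for an activator of the anaphase promoting complex that holds cells out of division, at 35.0, 39.4 and 38.9 CPM in non-irradiated and 55.1, 55.2 and 60.6 CPM in irradiated larvae. The fitted difference was 0.59 on the log2 scale, with a standard error of 0.11 (edgeR, adjusted p = 0.0369). It no longer passed when the alike pair was added up, nor when any 1 of the 6 libraries was omitted. Top2, the topoisomerase that untangles DNA, stood at 52.8, 45.1 and 54.4 CPM against 36.8, 30.6 and 33.0 CPM, without overlap (log2 fold change -0.60, adjusted p = 0.0532 from edgeR). Ncapd2_1, a condensin subunit, had a log2 fold change of -0.51 (adjusted p = 0.227) and Marcal1, a helicase that remodels stalled forks, of 0.35 (adjusted p = 0.522).

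Levels between genes were compared per gene length, in FPKM. In non-irradiated larvae Sesn_2 had the highest mean, 12.7 ± 3.93 FPKM, followed by Xrcc1_1 (7.91 ± 1.97), Xpac_1 (7.51 ± 1.79) and Poli_1 (7.11 ± 1.86), and the ranges of these neighbours overlapped. Msh6_1 followed at 2.59 ± 0.666 FPKM, below every library of Poli_1, and Fanci_0 at 1.36 ± 0.289 FPKM, below every library of Msh6_1. Smug1_1 (1.25 ± 0.276) and Topbp1-a (0.894 ± 0.167) came last and overlapped with the gene before them. Among all tested genes, whose median level was 7.53 FPKM, the 8 genes lay between percentile 10.3 for Topbp1-a and percentile 61.4 for Sesn_2.

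The order was different in irradiated larvae. Sesn_2 again led, at 11.5 ± 0.833 FPKM, but Poli_1 was next at 8.46 ± 0.425 FPKM, apart from Xrcc1_1 (6.97 ± 0.445) below it. Xpac_1 followed at 6.19 ± 0.559 FPKM. Msh6_1 (1.35 ± 0.341), Topbp1-a (0.959 ± 0.0920), Smug1_1 (0.806 ± 0.226) and Fanci_0 (0.637 ± 0.00351) formed the lower end, each overlapping with the next. Fanci_0 was therefore the gene with the lowest mean in irradiated larvae and the sixth of the 8 in non-irradiated larvae.

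**Figure D3:**
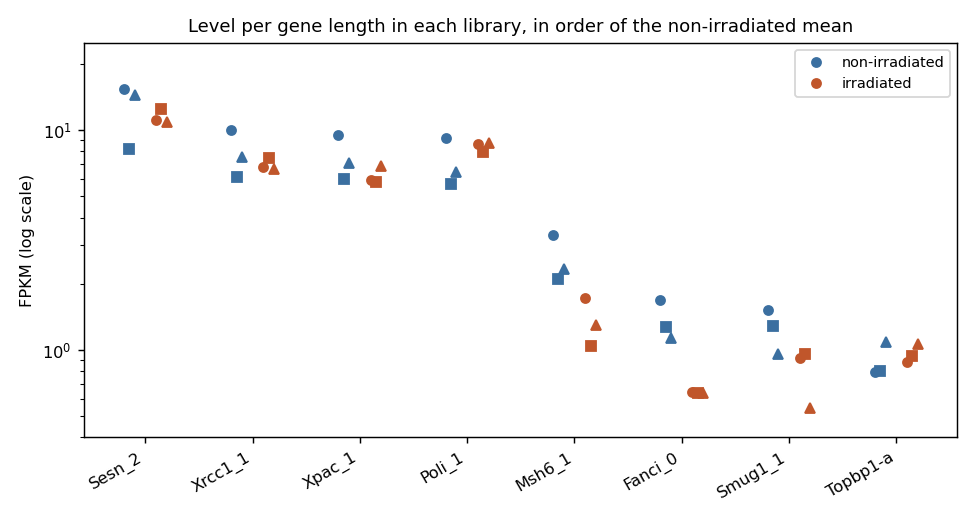
FPKM on a log axis for each of the 8 genes, with non-irradiated libraries in blue and irradiated libraries in orange (circle, square and triangle for replicates 1, 2 and 3), ordered by the non-irradiated mean. Sesn_2, Xrcc1_1, Xpac_1 and Poli_1 lie above 5 FPKM in every library and the other genes below 4.

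To compare the routes with one another, the ratio of FPKM of 2 genes was taken within each library, which removes the library scale. Of the 28 pairs of the 8 genes, 13 had ratios that did not overlap between the groups, where 30.1% of all pairs of tested genes with a count in every library did not overlap. The exact permutation test cannot give less than p = 0.1 for any pair, and pairs that share a gene are not independent. Fanci_0 and Msh6_1, which were singled out after their values were seen, were in 10 of these pairs, each with 1 of the other genes, out of 12 such pairs. Between Fanci_0 and Msh6_1 themselves the ratios overlapped, at 0.504, 0.606 and 0.485 in non-irradiated and 0.373, 0.611 and 0.488 in irradiated libraries.

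The widest change was between the crosslink and the translesion gene. Fanci_0 stood at 0.183, 0.223 and 0.176 of Poli_1 in non-irradiated libraries and at 0.0740, 0.0798 and 0.0726 in irradiated ones, a difference of -1.36 on the log2 scale (exact permutation p = 0.1). The ratio of Msh6_1 to Poli_1 was nearly constant in the non-irradiated libraries, at 0.363, 0.368 and 0.363, and lower in each irradiated library, at 0.198, 0.131 and 0.149. For both pairs the irradiated ratios were all below the non-irradiated ones.

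Poli_1 also changed places with Xpac_1 and Xrcc1_1, though not with Smug1_1, which it exceeded in all 6 libraries. Its ratio to Xpac_1 was 0.972, 0.953 and 0.907 in non-irradiated and 1.46, 1.37 and 1.28 in irradiated libraries, so that it was below Xpac_1 in every non-irradiated and above it in every irradiated library. Against Xrcc1_1 the ratio was 0.918, 0.926 and 0.849, then 1.28, 1.07 and 1.31. Both differences, 0.54 and 0.44 on the log2 scale, had an exact permutation p of 0.1. With the pair of Poli_1 and Smug1_1, these were the 3 pairs without overlap among the 15 that held neither Fanci_0 nor Msh6_1. This share is not comparable with the 30.1% of all pairs of tested genes. Fanci_0 and Msh6_1 were set aside after their values were seen, and all 3 pairs hold Poli_1. Xrcc1_1 and Xpac_1, of different excision routes, kept overlapping ratios of 1.06, 1.03 and 1.07 against 1.14, 1.29 and 0.973.

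**Figure D4:**
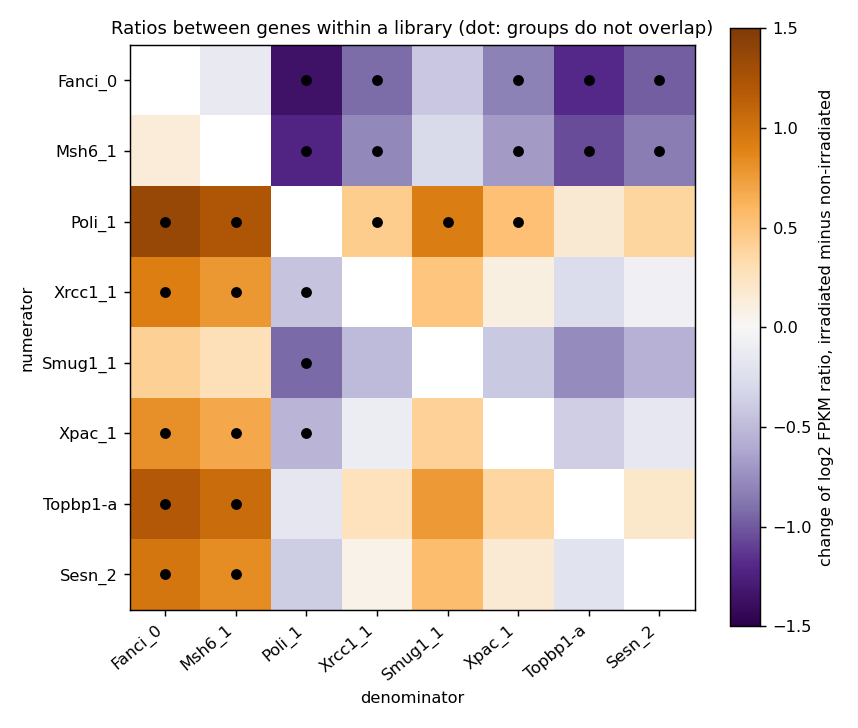
Colour gives the change of the log2 FPKM ratio of the row gene over the column gene, irradiated minus non-irradiated (n = 3 libraries each), and a dot marks the 13 pairs whose groups do not overlap. The rows of Fanci_0 and Msh6_1 are negative apart from Msh6_1 over Fanci_0, whose inverse is -0.14, and the row of Poli_1 is positive throughout.

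The pools of a group were not alike for these genes. Non-irradiated replicate 1 had the highest level of its group in 6 of the 8 genes, with a median deviation of 0.23 from the group mean on the log2 scale, beside 0.00 over all tested genes. Non-irradiated replicate 2 had the lowest level in 5 of the 8 genes (median deviation -0.20, beside 0.01 over all tested genes). The shares of all tested genes with their highest or lowest level in these pools were not computed. Among irradiated pools the median deviations lay between -0.03 and -0.01. In 6 of the 8 genes the irradiated pools had the smaller coefficient of variation, with the nearly alike replicates 1 and 2 among them, and Msh6_1 and Smug1_1 were the exceptions. The share of all tested genes with the smaller coefficient of variation in irradiated pools was not computed either. Over all tested genes, the Spearman correlation was 0.978 to 0.996 between irradiated libraries and 0.960 to 0.968 between non-irradiated ones. The fitted biological coefficient of variation was 16.5% to 24.4% for the 8 genes, beside a median of 19.8% over all tested genes.

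Deviations from the group means were compared between the 8 genes. Over the 6 libraries, the correlation of these deviations was above 0 in 19 of the 28 pairs, with a median r of 0.29. It was highest for Poli_1 with Xpac_1 (r = 0.92) and lowest for Fanci_0 with Topbp1-a (r = -0.94). The points share their libraries and the fixed group means leave few free values, so these are descriptions. The same values over other pairs of genes were not computed, so whether this is particular to the 8 genes was not tested.

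Among 929 other tested genes with a symbol, those with the level profile most like Fanci_0 over the 6 libraries were Pxd (r = 0.99), Optix (r = 0.98) and Rbf_1 (r = 0.98). Rbf_1 is named for the retinoblastoma-family repressor of cell cycle genes and Optix for an eye regulator. Such likeness was common, since 372 tested genes had an r above 0.9 with Fanci_0. This r includes the difference between the groups, so no shared role can be read from it. For Msh6_1 the nearest were Pf13_0198_4, Scd1_0 and Lip3_2 (r = 0.99, 0.96 and 0.96), for Poli_1 Sdc_2, Ddx5_1 and Mtmr14_0 (r = 0.96, 0.96 and 0.94), and for Sesn_2 Dyrk4_0, Ccdc85a_0 and Cyp4c3_0 (r = 0.99, 0.96 and 0.95). The nearest to Smug1_1 were Rat1, Picot_38 and Ttpa_0 (r from 0.97 to 0.99), to Xrcc1_1 Orct2_0, Gnpda1_0 and Cyp6d5_1 (0.94 to 0.97) and to Topbp1-a Aats-gln, Ylpm1_0 and Mlxip_2 (0.97 to 0.99). None of the 8 genes was among the 3 nearest of another.

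**Figure D5:**
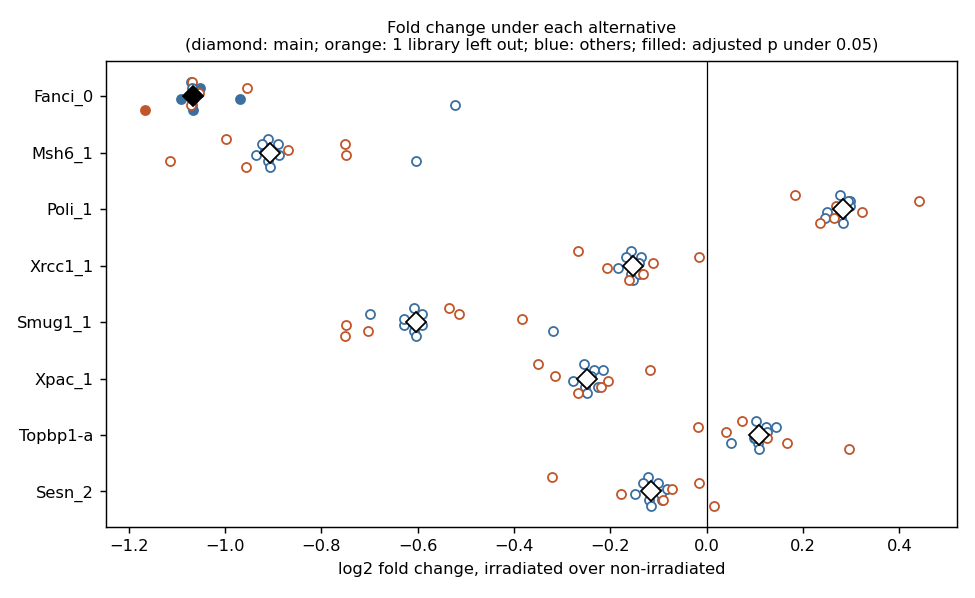
Each row shows the log2 fold change of 1 gene in the main analysis (diamond), with 1 library left out (orange) and under the other alternatives (blue), and filled symbols have an adjusted p under 0.05. Fanci_0 lies between -1.17 and -0.52 and Msh6_1 between -1.11 and -0.60 in all 16 alternatives, whereas Topbp1-a and Sesn_2 reach both sides of 0.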

How the data were processed

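Gene counts of 6 libraries (3 pools per group) were analysed, with groups taken from the sample titles. The authors removed low-quality reads, aligned the rest with HISAT2 and counted them per gene with HTSeq (version 0.6.1p2 in the submitters' processing notes, another version in the methods). The deposited counts are whole numbers without normalization. The strand setting is not given in the sources used here. Per the file headers, FPKM values stand beside the counts. Counts of 12834 genes were tested with edgeR (version 4.0.16, R version 4.3.3): filterByExpr, TMM normalization, robust glmQLFit and glmQLFTest, with Benjamini-Hochberg adjustment over the 9768 genes kept. Standard errors were derived from the fold change and its F statistic. Intervals are at 95%. Alternatives were DESeq2 (version 1.42.0), RLE or total-count scaling, an unfiltered table, a minimum of 10 counts per library, no robust prior, limma (version 3.58.1) on log2(FPKM + 1) and log2(FPKM + 0.1), a block for the replicate number, each library left out, and irradiated replicates 1 and 2 summed. Same-numbered pools did not deviate together.

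The genes and gene lists were chosen with earlier results of these data known, and the list of 18 genes was drawn after the names in the table were seen. Named genes are the 8 genes, list members past the threshold, the 2 largest and 2 smallest log2 fold changes of each list, and the 3 nearest profiles by Pearson correlation, which for Xpac_1 are not reported here. Symbols were matched without their counter. Product names, promoters and proteins were not used here. The gene table of assembly idZeuCucr1.2, which holds all 8 genes, was used for overlaps only, since the authors used another build. The scripts were tested on simulated counts.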

Additional observations from a re-analysis of the deposited data

How the results depend on the processing

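The log2 fold changes of Fanci_0, Msh6_1, Smug1_1, Xrcc1_1, Xpac_1 and Poli_1 kept their sign in all 16 alternatives, while Topbp1-a turned to -0.018 without non-irradiated replicate 1 and Sesn_2 to 0.016 without non-irradiated replicate 3. With 1 library left out, Topbp1-a log2 fold change ran from -0.018 to 0.30 and Sesn_2 log2 fold change from -0.32 to 0.016. Fanci_0 had an adjusted p under 0.05 in 8 of the 16 (0.00134 to 0.118) and Msh6_1 in 1 (0.0224 to 0.236), and both had an unadjusted p under 0.05 in all 16. At an adjusted p under 0.05, 1 of the 8 genes, 1 of the 13 repair list genes and 365 of all tested genes were called. With DESeq2 these numbers were 2, 2 and 1034, and with the pair of irradiated replicates summed they were 0, 0 and 25, with 2 of the 8 genes under an unadjusted p of 0.05. With limma on log2(FPKM + 1), 0 of the 8 and 0 of the 13 were called, and 1 of the 8 met the study's threshold in place of 2, on a scale that compresses genes of low FPKM. Leaving out 1 library gave 0 to 1 of the 8, 0 to 1 of the 13 and 21 to 301 of all tested genes. With the replicate number as a block the numbers were 0, 0 and 89, but the labels give no shared origin and same-numbered pools had correlated deviations of -0.01, -0.10 and -0.15, with no irradiated pool closest to its own number. Libraries with 16 to 33 counts of Smug1_1 and 6 to 19 of Gen limit what can be seen for these genes.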
